A study of Mus musculus with 12 samples.

Results

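N6-methyladenosine (m6A) peaks that begin at the start of a gene were examined in mouse spermatogonial stem cells (SSCs) and in neural stem cell-like cells made from them (iNSCs). A peak counted as a start peak when it overlapped exactly 1 protein-coding gene span and its upstream edge lay within 500 bases of the gene's start, and when it did not reach the last 2000 bases of the span. The rule used position only, and it found 11481 of the 118075 peaks in 6 lists. These start peaks belonged to 4561 of the 12906 genes with a peak over that gene alone in at least 1 list (35.3%). Each list came from 1 antibody pull-down (IP) library, with 3 libraries per group. The SSC culture used a layer of inactivated STO fibroblasts and a medium with GDNF, LIF, basic FGF and EGF. The iNSCs had been derived from them on laminin with 1 µM retinoic acid for 24 h, then a neural medium with basic FGF and 10 µM SB431542, which blocks type I receptors of the TGF-β family. The labels name no genetic change in either group.

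m6A is a methyl mark placed on adenosines of messenger RNA by a METTL3 and METTL14 complex, and proteins such as YTHDF1 bind it. In most transcripts it is found mainly around the stop codon and in the last exon, so marks at the transcript start are the less usual kind. When the first transcribed base is adenosine, the enzyme PCIF1 can place a closely related mark, m6Am, on that cap-adjacent base. Antibodies to m6A also bind m6Am, so a start peak can hold signal of either mark and these lists do not tell them apart. A peak also needs a transcript, and without read counts more RNA and more mark per RNA cannot be told apart. Fewer cells of a type and less RNA per cell cannot be told apart either.

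The annotated starts of 8 genes with a start peak are shown because the first base decides whether the cap-adjacent mark is possible there. Sequences came from the RefSeq promoter table (GRCm38.p6) and run 5′ to 3′ on the gene's strand. The single capital marks the first base of the annotated transcript, after 10 bases before it.
Trim44 at chr2:102400881-102400910 on the minus strand: ggcgcgcggcGaagagaccgagcgggcgcc
Purb at chr11:6476057-6476086 on the minus strand: cgccggaagcGggccgtgccgcacggaagc
Tspyl2 at chrX:152342465-152342494 on the minus strand: cctgggcgatAggcgctgtgggagtggggc
Ncl at chr1:86359436-86359465 on the minus strand: cggggacggaCgcgagctctggttggtgga
Sycp3 at chr10:88459577-88459606 on the plus strand: gtgtgtacccAtggcgttcagccaatcagc
Nfkbia at chr12:55492628-55492657 on the minus strand: ccccgcccctGagaaatcccctgccagcgt
Polr3k at chr2:181864350-181864379 on the plus strand: acgtcttgagGatcccgggttgccagttac
Ythdf1 at chr2:180920917-180920946 on the minus strand: gcgtagcttcGtcccagccgccgcggccgc
Trim44, Purb and Tspyl2 had a start peak in all 6 lists. Ncl, Sycp3 and Nfkbia had one in the SSC lists only, and Polr3k in the iNSC lists only. The first base was A in Tspyl2 and Sycp3 among these 8, and G or C in the others.

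The core of the m6A consensus is GGAC, and it occurred within the first 50 transcribed bases of some of these genes. A second set shows that motif in capitals in genes whose start peak is described below.
Ncl at chr1:86359410-86359431 on the minus strand: aagtcacgaGGACccccttcgt
Kars at chr8:112011336-112011354 on the minus strand: gaggcaGGACttagagcca
Sycp3 at chr10:88459617-88459636 on the plus strand: gtcggggccGGACtgtattt
Nfkbie at chr17:45555708-45555729 on the plus strand: cctaactagGGACcgttcagct
A motif match is a description of the letters and not a site of the mark.

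The SSC lists held 27597, 19728 and 24775 peaks in total and the iNSC lists 13913, 16002 and 16060. Depth is unknown because read counts are not part of the lists, and intervals and detection limits cannot be given. For all 12 samples the labels' cell type field contradicts the title, and the titles were followed. Germ cell markers with a peak numbered 6, 5 and 5 of 8 in SSC, Zbtb16 and Ddx4 among them, and 0, 0 and 1 in iNSC. Neural stem cell markers with a peak numbered 4, 3 and 3 of 8 in SSC and 2, 2 and 2 in iNSC. Pax6 had a peak in the iNSC lists only, while Sox1, Fabp7 and Hes5 had none in any list. For fibroblast markers the counts were 4, 3 and 6 of 6 in SSC and 4, 3 and 4 in iNSC. For epithelial markers they were 3, 3 and 2 of 4 in SSC and 0 in each iNSC list. For Sertoli and Leydig cell markers they were 2, 3 and 1 of 6 in SSC and 1 in each iNSC list. The part of other cell types in the results below was not tested. No label states that replicates are separate cultures, and a p-value therefore reflects only how far these libraries spread, which may be technical. With 3 libraries against 3, the smallest p an exact permutation test can give is 0.1.

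Start peaks numbered 1950, 2028 and 2844 in SSC and 1429, 1243 and 1987 in iNSC. The third iNSC list lay above the first SSC list, so the groups overlapped. The means were 2274 ± 495 in SSC and 1553 ± 387 in iNSC (SD, n = 3), and the exact two-sided permutation test gave p = 0.2. At equal list length the difference fell from 721 to 68.3 start peaks (exact permutation p = 0.7). Relative to list length the groups were close, with start peaks making up 7.07%, 10.3% and 11.5% of the SSC lists and 10.3%, 7.77% and 12.4% of the iNSC lists. Libraries within a group differed more than the groups did, and the exact permutation test gave p = 0.8. A gene rarely carried more than 1 start peak in a list, so start genes followed the same pattern, at 1945, 2027 and 2840 in SSC and 1429, 1241 and 1986 in iNSC. Of the genes with any peak in a list, 24.9% ± 4.61 had one at the start in SSC and 23.6% ± 5.64 in iNSC (SD, n = 3, exact permutation p = 0.8).

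**Figure D1:**
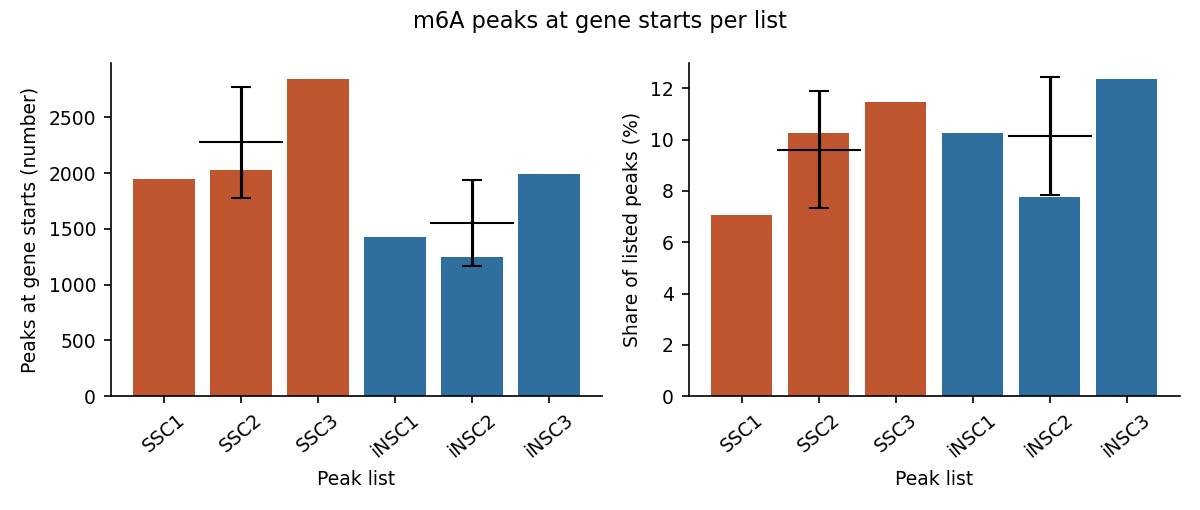
Number of start peaks and their share of the list in each of the 3 SSC and 3 iNSC lists, with bars for libraries, and the mean and SD of each group. Counts and shares overlap between the groups.

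The upstream edge of a start peak often fell on the annotated start itself. It lay within 1 base of the start for 21.6%, 26.1% and 19.4% of start peaks in SSC and for 29.3%, 27.4% and 27.3% in iNSC. Every iNSC list exceeded every SSC list, with means of 22.4% ± 3.43 and 28.0% ± 1.10 (SD, n = 3, exact permutation p = 0.1). When the start was taken from the nearest entry of the promoter table, the edge lay within 1 base for 36.3%, 43.5% and 33.3% in SSC and 49.8%, 43.1% and 47.5% in iNSC, and the groups overlapped. With the span start, the edge lay within 100 bases for 67.9% ± 4.22 of start peaks in SSC and 77.3% ± 1.09 in iNSC. It lay before the span for 13.1% ± 2.21 in SSC and 16.1% ± 0.751 in iNSC. The downstream edge had a median of 293 bases after the start in SSC and 301 in iNSC. At the limit of the rule, the 196 peaks that began in the last 50 bases inside it had a median width of 275 bases, and the 155 that began in the next 50 bases had one of 274.

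**Figure D2:**
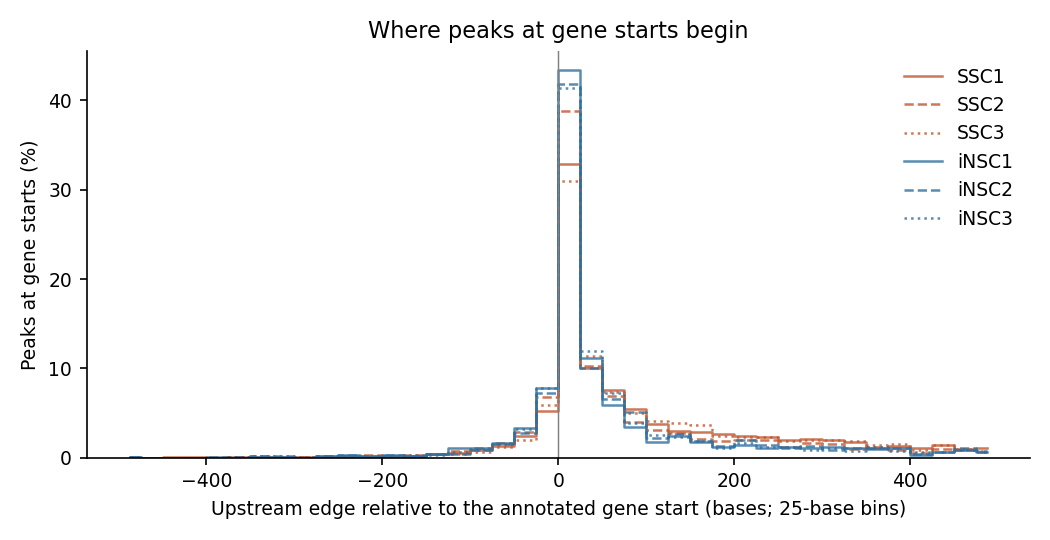
Distance of the upstream edge from the annotated gene start, in bases, against the percent of start peaks per distance step, for SSC and iNSC lists. Steps are 25 bases wide. The highest step in both groups begins at 0 and held 32.9%, 38.9% and 31.0% of start peaks in SSC. In iNSC it held 43.4%, 41.8% and 41.4%. Edges within 1 base of the start made up 22.4% of start peaks in SSC and 28.0% in iNSC on average.

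Start peaks were wider than internal peaks and narrower than peaks at gene ends in all 6 lists. The median width of start peaks was 203, 239 and 219 bases in SSC and 262, 237 and 257 in iNSC. Internal peaks had median widths of 148, 160 and 154 bases in SSC and 210, 197 and 204 in iNSC. Peaks reaching the last 2000 bases had medians of 552, 730 and 569 bases in SSC and 1203, 1082.5 and 1146 in iNSC. Start peaks were on average 57.3 bases wider than internal peaks and their difference from end peaks averaged -644 bases, each with an exact sign-flip permutation p of 0.031, the smallest that 6 lists can give. Between the groups, start peak widths overlapped (220 ± 18 and 252 ± 13.2 bases, SD, n = 3, exact permutation p = 0.2). Against all other peaks with a gene, start peaks were wider in each SSC list, by 19, 47 and 27 bases. In the iNSC lists the same difference was -202, -172 and -134.5 bases. With peaks under 100 bases left out, the SSC differences were -21, 12 and 1 bases and the iNSC ones -301, -262 and -233, so 1 of the 3 SSC lists changed sign. The difference of these differences was 200.5 bases (exact permutation p = 0.1) and reached 499.8 bases when only the better-scoring 50% of peaks per list were used, while the width of other peaks moved with it, from 189 ± 4.62 bases in SSC to 421.5 ± 37.8 in iNSC (SD, n = 3).

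The deposited score of each peak, whose unit is not given, was ranked within its own list, so that 100 is the best peak of the list. Start peaks ranked above the other peaks in SSC and below them in iNSC. Their median percentile was 54.4, 52.6 and 56.9 in SSC and 39.4, 41.7 and 44.2 in iNSC. The groups did not overlap, at 54.6 ± 2.13 and 41.8 ± 2.38 (SD, n = 3), a difference of 12.9 points. The exact two-sided permutation test gave p = 0.1, and the Benjamini-Hochberg value over the 57 measures compared between the groups was 0.142, as for all 40 of them with p = 0.1. Peaks at gene ends went the other way, with medians of 52.2, 50.5 and 49.2 in SSC and 60.5, 61.2 and 63.2 in iNSC. Internal peaks stood at 49.0, 49.4 and 49.0 in SSC and 46.5, 46.1 and 45.6 in iNSC. Ranks within a list are relative, so a lower rank of start peaks does not say that their own signal was lower. The best-scoring 25% of a list held 27.2% ± 1.85 of the start peaks in SSC and 16.5% ± 1.14 in iNSC (SD, n = 3).

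Start peaks stood 4.0 ± 3.18 points above end peaks in SSC, and in iNSC the difference was -19.9 ± 1.07 points (SD, n = 3, exact permutation p = 0.1). These means were 23.9 points apart, or 12.6 with the better-scoring 50% of peaks per list, where SSC differences were -0.0272, -1.19 and 0.936. Against internal peaks the differences were 5.54 ± 2.32 points in SSC and -4.32 ± 2.84 in iNSC. Among the better-scoring 50% of each list, the difference from all other peaks was -1.43, -1.36 and 1.61 points in SSC and -8.46, -11.4 and -9.86 in iNSC. At equal list length the SSC differences were -1.24, 0.920 and 3.21 points. The sign was therefore mixed between the SSC lists in both settings, whereas it was negative in each iNSC list among the stronger peaks. Many peaks share a score of 3100, and some score higher, such as Togaram1 at 3161.2 in iNSC replicate 1. A score of 3100 or more was counted as at the cap. By that count 5.59% ± 2.48 of start peaks were at the cap in SSC and 9.49% ± 1.14 in iNSC. Of end peaks, 5.79% ± 2.51 were at the cap in SSC and 22.0% ± 2.24 in iNSC.

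**Figure D3:**
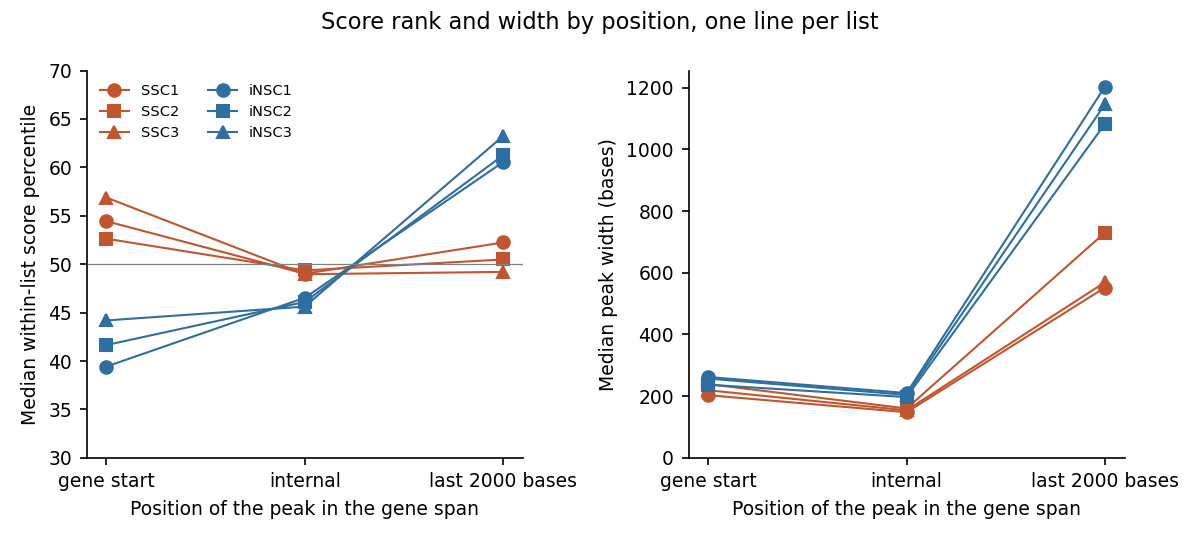
Median within-list score percentile and median width in bases of start, internal and end peaks, with 1 point per list and SSC and iNSC lists in separate colours. Start peaks rank above end peaks in SSC on average and below them in every iNSC list, and start peak widths lie between those of internal and end peaks in each list.

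The same contrast was measured inside single genes, using genes with both a start and an end peak in a list. There were 686 ± 129 such genes per SSC list and 596 ± 159 per iNSC list (SD, n = 3). The start peak scored higher than the best end peak in 41.7%, 44.6% and 45.8% of them in SSC and in 30.6%, 28.2% and 24.6% in iNSC. The groups did not overlap and differed by 16.2 percentage points (44.0 ± 2.13 and 27.8 ± 3.01, SD, n = 3, exact permutation p = 0.1). In SSC the start peak scored below the end peak in 54.1% ± 2.72 of these genes, although the list medians of start peaks lay above those of end peaks. Against the best internal peak of the same gene, the start peak scored higher in 33.4%, 37.7% and 41.2% in SSC and 31.3%, 28.8% and 35.2% in iNSC, and the groups overlapped (exact permutation p = 0.2). In genes with several peaks, the start peak was the best of the gene in 34.3% ± 4.18 in SSC and 24.7% ± 1.04 in iNSC. In 25.7% ± 3.92 of start genes in SSC and 23.8% ± 2.44 in iNSC the start peak was the only peak.

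Start peaks recurred less between lists than peaks anywhere in the gene did. Of the 4561 start genes, 1851 (40.6%) had the peak in 1 list only and 450 (9.87%) had it in all 6. Over the whole gene, 3841 of 12906 genes (29.8%) had a peak in all 6 lists, and of 7971 genes with a peak in the last 2000 bases 941 (11.8%) did. A start peak was present in all 3 SSC lists and no iNSC list for 246 genes (5.39%) and in the reverse pattern for 104 genes (2.28%). The same patterns for a peak anywhere were met by 1479 genes (11.5%) and 274 genes (2.12%), so the SSC-only share at the start lay below that of whole genes and the iNSC-only share close to it. SSC lists are longer, and at equal list length the counts turned around, with 127 SSC-only and 164 iNSC-only genes. Leaving out a library changed them too: there were 494 SSC-only genes without SSC replicate 1 and 393 without SSC replicate 2, and 199 iNSC-only genes without SSC replicate 3 and 182 without iNSC replicate 2. The start genes of 2 lists overlapped by a Jaccard index (shared genes as a percent of the genes in either list) of 37.7% on average within SSC, 55.0% within iNSC and 30.8% between the groups. The mean index within groups exceeded that between groups by 15.5 points (exact permutation p = 0.1). For genes with a peak anywhere the index was 62.9% within SSC, 81.3% within iNSC and 50.5% between the groups. For end peaks it was 38.1%, 73.7% and 34.1% in the same order. Higher overlap within groups was therefore not particular to start peaks.

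**Figure D4:**
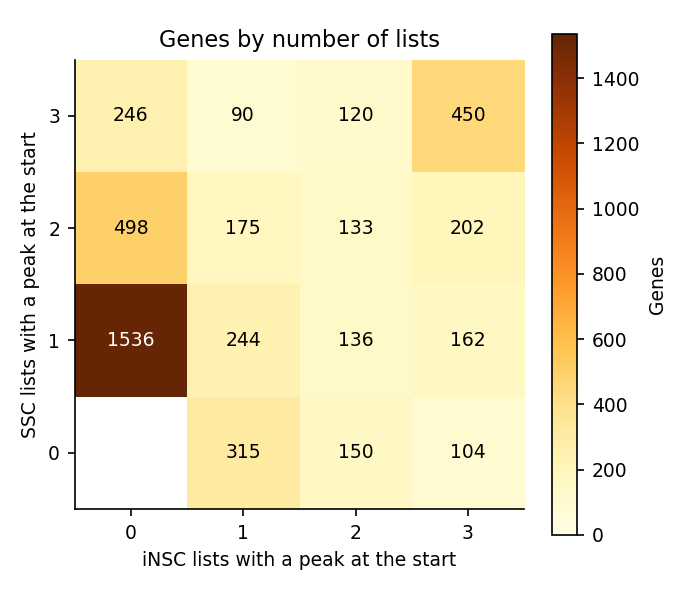
Number of genes with a start peak by the number of SSC lists and of iNSC lists that hold it. The corners are the 450 genes in all 6 lists, the 246 in the 3 SSC lists only and the 104 in the 3 iNSC lists only.

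The 450 genes with a start peak in all 6 lists often carried peaks of high rank. Their median percentile was 79.1, 80.3 and 88.2 in SSC and 65.3, 58.2 and 71.3 in iNSC. The upstream edge was identical to the base in all 6 lists for 237 of them (52.7%). In 353 genes (78.4%) the median iNSC percentile lay below the median SSC percentile. A capped score ranks lower in iNSC lists, because more peaks share the cap there, so the count was repeated in the 254 genes with no capped start score. It was 203 of these (79.9%), and every iNSC percentile lay below every SSC percentile in 105 of them, against 12 for the reverse.

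Many of the 450 genes tied on their lowest percentile, that of the cap in an iNSC list, and the naming rule took the 8 with the widest peaks among them, namely Purb, Ppp1r9b, Lemd3, Hnrnpul2, Yy1, Nom1, Tspyl2 and Trim44. Chd3, Eif5b and Zfp622, with narrower peaks, were also at the cap in all 6 lists. Purb, a single-stranded nucleic acid-binding protein, had peaks of 3259, 3340 and 3456 bases in SSC and 3514, 3326 and 3396 in iNSC (chr11:6472563-6476076), ending at the base capitalised above. Trim44, a tripartite motif protein, had a peak of exactly 888 bases in all 6 lists (chr2:102400013-102400900). Yy1, a zinc finger transcription factor, had one of 1119 bases in all 6 (chr12:108792973-108794091). The start of Lemd3, an inner nuclear membrane protein, carried a peak of 1549 bases in all 6, at percentiles of 92.8, 96.1 and 97.6 in SSC and 92.3, 90.9 and 91.8 in iNSC. Its score was below the cap in SSC replicate 1 and at the cap in the other lists. The score cap was reached in every list by 23 of the 450 genes.

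SSC-only start peaks were led, with ties put in order of width, by Clic6, Trap1a, Rhox2a, Ncl, Sub1, Cdv3, Elovl3 and Zbtb10. Clic6, a member of the chloride intracellular channel family, had a peak of 1424 bases in all 3 SSC lists at percentiles of 98.1, 96.1 and 97.6. Trap1a, an X-linked tumour antigen gene, and Rhox2a, a reproductive homeobox gene of the X chromosome, had the same percentiles. Reads of Rhox2a can come from near-identical Rhox2 copies, so its assignment is uncertain. Elovl3, a fatty acid elongase, ranked at 95.7, 96.1 and 97.6 although its peak was only 21, 35 and 30 bases wide. Over the 246 genes the median percentile was 64.7, 58.3 and 69.2. For 150 of the 246 the whole gene had no peak in iNSC and a peak in each SSC list.

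iNSC-only start peaks ranked lower, with median percentiles of 35.4, 38.0 and 52.8 over the 104 genes. They were led by Togaram1, Plxna2, Senp3, Sncg, Crkl, Cnnm4, Tgfb3 and Polr3k. Togaram1, a protein of ciliary microtubules, had peaks of 2162, 2231 and 2287 bases at percentiles of 99.8, 90.9 and 91.8 (chr12:64965742-64968028). Plxna2, a semaphorin co-receptor in axon guidance, had a 569-base peak in all 3 lists at 92.3, 90.9 and 91.8. Polr3k, a subunit of RNA polymerase III, had a 233-base peak at 81.2, 80.7 and 70.9, and Tgfb3, a TGF-β ligand, one of 1461 bases at 71.3, 76.0 and 75.9. A peak over the Tgfb3 start region that did not meet the start rule was present in 1 SSC list, and the same held for Cnnm4. Only 19 of the 104 genes had no peak at all in SSC while having one in each iNSC list.

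To set aside genes whose peaks came and went as a whole, start peaks were followed in the 3841 genes with a peak in all 6 lists. Of these, 1980 (51.5%) had a start peak in at least 1 list and 450 (11.7%) in all 6. The start peak was SSC-only in 66 (1.72%) and iNSC-only in 46 (1.2%), so these genes had a peak somewhere in every list and the start peak in the lists of 1 cell type. In 65 of the 66 genes no iNSC list held any peak over the start region, and in 42 of the 46 no SSC list did. A peak missing from a list is a missing call and not a measured absence. Without SSC replicate 1 the SSC-only count was 148, and without SSC replicate 2 it was 124. The iNSC-only count was 109 without SSC replicate 3, 77 without iNSC replicate 2 and 75 without SSC replicate 2. At equal list length 29 genes were SSC-only.

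Ncl, which encodes nucleolin of the nucleolus, had a 250-base peak at its start in all 3 SSC lists at percentiles of 98.1, 96.1 and 97.6 (chr1:86359206-86359455). It had 4, 4 and 3 peaks over the gene in SSC and 2, 1 and 2 in iNSC, where none was at the start. Sub1, a transcriptional coactivator, had start peaks of 78, 108 and 98 bases at the same percentiles. Tpm1, a tropomyosin, had one of 388 bases at 90.6, 96.1 and 97.6. Kars, a lysyl-tRNA synthetase, had one of 145 bases at 81.6, 86.9 and 77.2, with its edge on the annotated start (chr8:112011210-112011354). Its first bases hold the GGAC shown above. Kif2a, Cdv3, Arid3b and Bhlhe41 completed the 8 best-ranked.

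In the reverse direction Crkl, an adaptor of tyrosine kinase signalling, had start peaks of 804, 729 and 804 bases in the iNSC lists at 75, 76.4 and 81.8. It had 1 peak in each SSC list and 3 in each iNSC list. Smap1, an Arf GTPase-activating protein, ranked at 64.6, 66.7 and 75.8 and Man1c1, a mannosidase of the Golgi, at 74.4, 54.1 and 80.3. Togaram1, Wnk1, Pcdh1, Tbc1d4 and Zfp281 were the other best-ranked genes. For Zfp281 all 3 SSC lists held a peak over the same region that did not meet the start rule. The same held for 1 SSC list at Wnk1. Which part of the rule these peaks missed was not examined.

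Germ cell identity genes had start peaks in SSC lists only. Of 27 germ cell identity genes with a peak, 14 had one at the start, in 8, 6 and 11 genes in the SSC lists and in none in the iNSC lists. The 14 genes are 51.9% of the list, against 35.3% of all genes with a peak. Asz1, Ddx25 and Tdrkh, which act in germ granules and small RNA pathways, were SSC-only. Tdrkh ranked at 82.7, 78.6 and 89.7 and Asz1 at 95.4, 56.5 and 69.4. Among 24 genes of undifferentiated spermatogonia with a peak, 8 had one at the start (33.3%, close to the 35.3% of all genes), and Eomes, Lhx1, Nefm, Plvap and Zbtb16 were SSC-only. Lhx1, a transcription factor gene induced by GDNF, had a 1530-base peak at 84.7, 85.0 and 97.6, and Zbtb16 a 169-base peak at 81.0, 53.7 and 68.7. Of 28 meiosis genes with a peak, 11 had one at the start (39.3%, also close to that share), and Syce1, Syce2 and Sycp3 of the synaptonemal complex were SSC-only. Sycp3 ranked at 98.1, 88.9 and 97.6 with a 144-base peak. No germ cell identity gene had a peak of any kind in an iNSC list, against 20, 18 and 25 in the SSC lists, so the start peaks followed the whole gene there.

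Neural stem cell genes showed no matching pattern in iNSC. Of 22 with a peak, 6 had one at the start (27.3%, against 35.3% of all genes), in 3, 4 and 5 genes in SSC and 3, 1 and 2 in iNSC. Those with a peak anywhere numbered 15, 11 and 16 in SSC and 7, 7 and 7 in iNSC. The share at the start was therefore alike, at 29.2% ± 8.37 in SSC and 28.6% ± 14.3 in iNSC (SD, n = 3). Over all genes it was 24.9% and 23.6%. Emx2, a homeobox gene of the developing forebrain, was iNSC-only with a 1253-base peak at 53.3, 31.9 and 65.1. Sox11, a transcription factor gene of neural progenitors, was SSC-only, at 42.2, 96.1 and 99.9. Hox genes, the positional homeobox genes, had start peaks in 0, 1 and 2 genes of the SSC lists and in 5, 5 and 5 of the iNSC lists. Of the Hox genes, 12, 11 and 16 had a peak anywhere in SSC and 18, 19 and 19 in iNSC. Hoxc8 was iNSC-only, with a 677-base peak at 5.8, 40.2 and 53.6.

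Among pathways, start peaks were frequent in Wnt signalling, where 21 of 31 genes with a peak had one (67.7%, against 35.3% of all genes). Fzd3 and Fzd7, Wnt receptors, were SSC-only, and Lrp5, a co-receptor, and Rnf43, a ligase that removes receptors, were iNSC-only. Fzd3 ranked at 77.7, 74.0 and 77.6 and Rnf43, with a peak of 2082, 2146 and 2146 bases, at 75.4, 72.1 and 68.7. All 3 iNSC lists held a peak over the Fzd7 region that did not meet the start rule. In the TGF-β and BMP pathway, whose receptor kinases SB431542 inhibits in part, 18 of 34 genes (52.9%) had a start peak. The nuclear repressor Ski, the signal transducer Smad5, the inhibitor Smad7 and the ligand Tgfb1 had one in all 6 lists. Ski had a 1041-base peak in all 6, at 85.7, 67.1 and 90.2 in SSC and 92.3, 90.9 and 91.8 in iNSC.

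RNA polymerase subunits had a start peak in at least 1 list in 17 of 23 genes with a peak (73.9%), and DEAD and DEAH box RNA helicases in 31 of 45 (68.9%), against 35.3% of all genes. Within single lists the shares were lower, from 38.9% to 62.5% for the subunits and from 41.7% to 55.8% for the helicases, against 18.4% to 29.6% of all genes. Chromatin modifiers (20 of 51, 39.2%) and SWI/SNF and CHD remodellers (13 of 28, 46.4%) stood closer to all genes. The helicase counts were 21, 18 and 24 in SSC and 16, 15 and 17 in iNSC. Of the helicases, Ddx21, which acts in ribosomal RNA synthesis, had a 171-base peak in all 6 lists at 98.1, 96.1 and 97.6 in SSC and 82.6, 90.9 and 91.8 in iNSC. Ddx10 had one of 295 bases in all 6, at 94.9, 96.1 and 97.6 in SSC and 43.0, 18.2 and 25.2 in iNSC, where every iNSC value lay far below every SSC value. Of the polymerase subunits, Polr2k and Polr2m had a start peak in all 6 lists, Polr3gl was SSC-only and Polr3k iNSC-only. Cytosolic ribosomal protein genes stood at the other end, with 3 of 30 (10.0%), namely Rpl23a, Rpl39 and Rpl7l1. Their genes are short, and 5 of 30 (16.7%) had a start peak when peaks reaching the last 2000 bases were kept. Zfp zinc finger genes (98 of 367, 26.7%) and SR proteins and hnRNPs of splicing (7 of 27, 25.9%) also lay below the share of all genes. No test was run on these lists, which were chosen with earlier results of these data known.

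**Figure D5:**
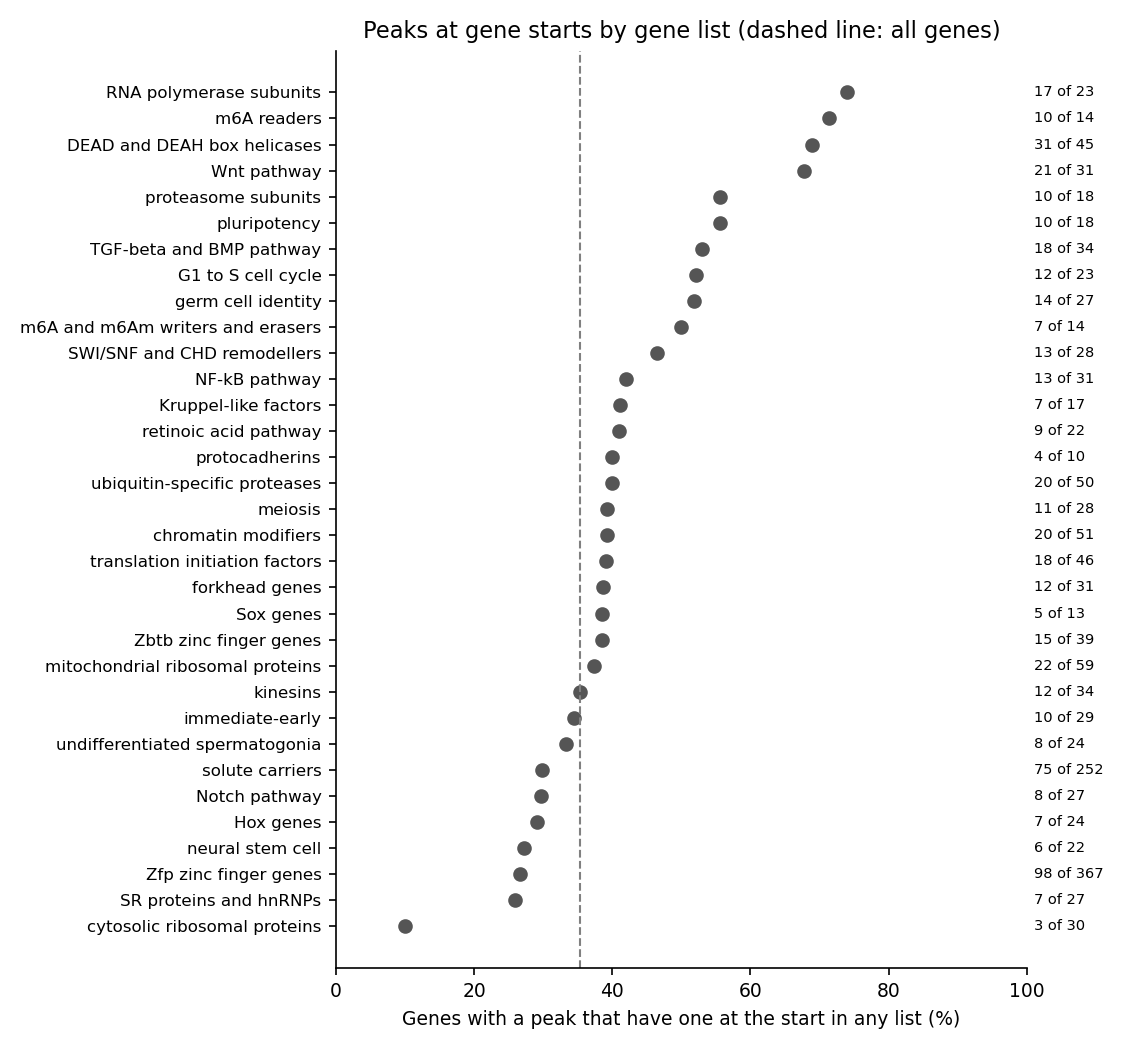
Percent of the genes with a peak that had a start peak in at least 1 list, for each gene list, with the value over all genes (35.3%) as a line. RNA polymerase subunits (73.9%) and m6A readers (71.4%) are the highest and cytosolic ribosomal proteins (10.0%) the lowest.

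Genes of the m6A machinery were among those with start peaks. Of 14 m6A readers with a peak, 10 had one at the start (71.4%), and of 14 writers and erasers 7 did (50%), against 35.3% of all genes. Ythdc1, the nuclear reader, had a 371-base peak in all 6 lists at 95.7, 96.1 and 97.6 in SSC and 92.3, 90.9 and 91.8 in iNSC. Fmr1, the fragile X protein that binds methylated RNA, ranked at 90.7, 96.1 and 97.6 in SSC and 69.5, 62.3 and 68.8 in iNSC, so all iNSC values were lower. Mettl14, a subunit of the writer, had a 229-base peak in all 6 lists, at 40.5, 73.9 and 89.1 in SSC and 27.2, 24.2 and 50.6 in iNSC. Mettl3, the catalytic subunit, and Pcif1, the cap-adjacent writer, had no start peak in any list.

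The series title names a YTHDF1, NF-κB and cyclin D1 axis. Ythdf1 itself had a 266-base start peak in SSC replicate 3 at percentile 34.6 and in the iNSC lists at 47.4, 15.0 and 65.8. It was not found at the start in the other SSC lists. Nfkbia, the gene of IκBα, which holds NF-κB in the cytoplasm, had a 348-base peak in the 3 SSC lists only, at 38.6, 19.7 and 73.4, beginning at the annotated start (chr12:55492300-55492647). The gene had 2, 1 and 1 peaks in SSC and none in iNSC, so its start peak did not differ from the gene as a whole. Nfkbie, which encodes IκBε, had a start peak in all 6 lists, at 83.8, 35.9 and 66.2 in SSC and 46.6, 38.6 and 30.3 in iNSC. Those values overlapped between the groups. Rela, the p65 subunit, had one in SSC replicate 3 at 32.6 and in iNSC at 20.8, 39.1 and 55.9. Ccnd1, Nfkb1 and Nfkbib had no start peak in any list.

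The promoter entries of start peak genes had more GC-rich starts than those of other genes with a peak. A promoter entry was matched by symbol for 3665 of the 4561 start genes (80.4%) and for 6676 of the 8345 genes with a peak but none at the start (80.0%). The first 50 transcribed bases were 67.6% G or C in the first set, 63.4% in the second and 56.7% over all 32841 entries of the table. Genes of both sets count once, by their nearest entry. The table can hold several entries of a gene and each counts in its value, here and below, so the units differ. The nearest entry lay within 500 bases of the span start for 97.1% of the first set and 76.8% of the second. With those entries only, G or C made up 67.8% and 63.3%, but they cover 78.0% and 61.4% of the genes, under the 80% needed. The median number of CG pairs in the 300-base promoter window was 23, 18 and 7 in the same order. The first transcribed base was A in 27.5%, 32.0% and 34.4%, and G in 48.6%, 43.9% and 35.6%. Where the peak edge lay within 1 base of the span start, 27.2% of 947 entries began with A, a share below that of all entries. The GGAC letters, searched on the transcribed strand of the first 50 bases, were present in 19.4%, 21.3% and 18.9%. GGACT, which contains GGAC, was present in 4.53%, 5.59% and 5.75%. The classes of recurrence are not compared, because under 80% of the genes with a start peak in all 6 lists and of the iNSC-only genes had an entry, which makes that check void.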

How the data were processed

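Each of the 6 deposited files was the peak list of 1 IP library, with 1 score per peak that the authors deposited without a unit, and with chromosome, start, end and strand. Per the labels' protocols, poly(A) RNA was cut to about 200 nt, pulled down with an m6A antibody and made into directional libraries, although the series type reads methylation profiling. Listed in the submitters' processing notes are mm9, HISAT2 (2.0.4) and cutadapt (1.9.3). Which program called peaks, and at what threshold, is not given in the sources used here. Between 4.90% and 12.0% of the peaks per list had an edge on a GRCm38.p6 gene edge, against 0.00807% to 0.0187% after moving them by 10000 bases, so positions are given on GRCm38, 1-based. The 6 input libraries were not analysed here.

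Each peak was placed on 21900 protein-coding gene spans with Python 3.11.15, pandas 2.3.3 and numpy 2.4.6, a step tested on simulated peaks. Of all peaks, 112965 overlapped exactly 1 span. The start was the span edge by the peak's strand, which can miss alternative starts. Leaving out peaks that reach the last 2000 bases removed 900 near a start, and 2596 spans of 2000 bases or less could hold no start peak. Scores were turned into percentiles within their own list, and 3100 or more was counted as capped. Exact permutation tests compared libraries.

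The genes named were the 8 per class with the highest lowest percentile over the lists holding the peak, then wider peaks, without clone and predicted names. Up to 4 per gene list and the genes of the title were added, and others, such as members of short counts, were chosen after their values were seen. The start peaks, the 33 gene lists and the tests were chosen with earlier results of these data known. Alternatives were other windows, widths, list lengths and gene starts, and leaving out each library.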

Additional observations from a re-analysis of the deposited data

Results flagged for a closer look

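Within each list, start peaks were set against other peaks of the same list, and in 4 measures the difference had 1 sign in all 3 SSC lists and the opposite sign in all 3 iNSC lists. The median width of start peaks minus that of all other peaks was positive in each SSC list and negative in each iNSC list, and the group means differed by 200.5 bases, and by 499.8 in the better-scoring 50% of each list. With peaks under 100 bases left out, 1 of the 3 SSC differences was negative. The median score percentile of start peaks minus that of all other peaks behaved alike, with group means 14.1 points apart. Against end peaks the group means were 23.9 points apart (12.6 in the better-scoring 50%), and against internal peaks 9.86 points apart. In the better-scoring 50%, the SSC differences from all other peaks were -1.43, -1.36 and 1.61 points. Those from end peaks were -0.0272, -1.19 and 0.936 points, so the SSC sign was mixed in both measures. Each of these 4 group differences had an exact permutation p of 0.1, the smallest that 3 libraries against 3 can give. Choosing measures by opposite signs in all lists of the groups fixes that p in advance, so it adds no support.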

How the results depend on the processing

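The group differences in start percentile, edge placement, width, and counts of start peaks and genes kept their direction in every alternative run, the difference in median percentile ranging from 8.42 to 14.2 points. Sizes did change: at equal list length the difference in start peaks fell from 721 to 68.3 and in start genes from 719 to 68 (exact p = 0.7 for each). The shares, which did not differ beyond their spread, changed sign. The SSC minus iNSC share of the list was 2.13 points in the better-scoring 50% of each list, 0.491 at equal list length and 0.0382 with a minimum width of 100 bases, and ran from -1.71 to 0.743 on leaving out 1 library. The share of genes was -0.248 points with a window of 200 bases and ran from -1.32 to 4.28 on leaving out 1 library. The mean start minus other percentile over the 6 lists was 0.0691 with peaks reaching the last 2000 bases kept and ran from -3.83 to 0.0563 on leaving out 1 library. Counts of genes per class moved too. In the better-scoring 50% there were 47 iNSC-only genes and 193 in all 6 lists, and, among genes with a peak in all 6, 40 SSC-only and 14 iNSC-only. At equal list length these were 127 SSC-only and 164 iNSC-only genes, and 29 SSC-only among the common genes. With a start peak in at least 2 of 3 libraries there were 744 SSC-only, 254 iNSC-only and 905 in both groups, and 213 and 98 among the common genes. On leaving out 1 library, SSC-only genes ran from 261 to 494, iNSC-only from 126 to 199, all lists from 458 to 568, and the common genes from 74 to 148 and from 57 to 109. The cause was not tested, except that fewer lists or fewer peaks entered by construction.

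The replicate numbers gave no sign of pairing, as the correlations of same-numbered libraries' deviations were 0.00637, -0.0248 and -0.0151. With 3 libraries per group, such values cannot exclude that the samples were paired. With the replicate block the percentile difference was 12.9 points with an exact sign-flip permutation p of 0.25, the smallest 3 pairs can give. Group comparisons with or without the block cannot give a p low enough for a call, so none could change. Taking starts from the promoter table, an alternative chosen after seeing the data, reversed no result.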

Other observations

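Start peaks of 1000 bases or more made up 3.24% ± 0.946 of start peaks in SSC and 8.40% ± 1.34 in iNSC (SD, n = 3), and the groups did not overlap. Of the 246 SSC-only start genes, 20 (8.13%) were on the X chromosome, against 161 of all 4561 start genes (3.53%) and 4 of the 104 iNSC-only genes (3.85%). They included Trap1a, Nxf2, Tfe3, Map7d2 and Cul4b and several Rhox2 and Rhox3 copies, whose reads cannot be assigned with certainty. These genes were singled out after their values were seen. In all peaks, 3.44% ± 0.0667 of the SSC lists and 2.39% ± 0.170 of the iNSC lists lay on the X chromosome, so the listed peaks as a whole differed in the same direction.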
